A study of Homo sapiens with 19 samples.

Results

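The serpins are the largest family of protease inhibitors in human cells. The genes described here are the protein-coding genes whose symbol is SERPIN followed by a clade letter from A to I and a number. GENCODE 29 holds 34 such genes, and 33 are described. They were read in RNA-seq of 19 libraries from 2 human cell lines, and 32 of the 33 are among the 44717 gene identifiers listed for any library. The melanoma line 501Mel was infected with a lentiviral vector carrying shBRG1 or a scramble sequence labelled shSCR1 (3 replicates each). Other 501Mel cells received shMITF or a scramble labelled shSCR2 (2 replicates each). Hermes 3A, an immortalised melanocyte line, received shSCR, shBRG1 or shMITF (3 replicates each). BRG1 is the ATPase of a chromatin remodelling complex and is encoded by SMARCA4, and MITF is the transcription factor that governs melanocyte identity. All cells carried a short hairpin vector, and 1 hairpin per target was used, so that effects of a hairpin outside its target cannot be told apart from those of the knockdown. No sample was left uninfected. Both lines grew in the same basal medium with serum, but the Hermes 3A medium also held the phorbol ester TPA, cholera toxin, stem cell factor and endothelin-1, so that cell line and medium cannot be told apart.

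A serpin offers a protease an exposed loop as bait. When the protease cuts the loop, the serpin folds around it and traps it in an inactive covalent complex, so that each inhibitor molecule works only once. Clade A and clades C, D, F and G hold mostly secreted plasma proteins such as antitrypsin, antithrombin and C1 inhibitor. Clade B serpins stay largely inside the cell and guard it against cathepsins, granzymes and other proteases. Clade E holds the inhibitors of the plasminogen activators. Several members inhibit nothing: SERPINF1 (PEDF) is a secreted anti-angiogenic factor, first known from pigmented epithelium, and SERPINH1 (HSP47) is the collagen chaperone of the endoplasmic reticulum.

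Between 29158502 and 78857900 reads per library were counted on genes. Levels are given as CPM, counts per 1000000 counts of a library after TMM scaling over all 19 libraries. They are compared between genes only per kilobase of exon. A gene was called in a comparison when edgeR's quasi-likelihood test gave an adjusted p under 0.05 and an absolute log2 fold change over 1. Fold changes come from a fit of the comparison's own libraries. SMARCA4 fell by 2.36 and 2.38 on the log2 scale with shBRG1 in 501Mel and Hermes 3A cells. MITF fell by 1.06 with shMITF in 501Mel cells. It also fell by 1.55 with shBRG1 there, so that the 501Mel shBRG1 libraries are also low in MITF. In Hermes 3A cells MITF differed by -0.43 with shBRG1, under the fold threshold. The Hermes 3A difference with shMITF was -0.85 (adjusted p = 0.019 from edgeR), under the fold threshold. The biological coefficient of variation within groups was 4.56% to 5.88% in the shSCR1, shSCR and both shBRG1 groups, 16.5% with shSCR2, 17.4% with shMITF in 501Mel cells and 28.6% with shMITF in Hermes 3A cells. Replicate 1 of that last group stood apart from replicates 2 and 3 for SERPINE2 and SERPINF1, and replicate 3 stood apart for SERPINI1. The summed level of 7 melanocyte lineage markers was 29283 to 31484 CPM with shSCR1 and 63251 to 64444 CPM in Hermes 3A cells with shSCR, and all 7 had at least 10 counts in a library of every group. Of 7 keratinocyte markers, KRT1, KRT5 and KRT14 were at 0 in every Hermes 3A library. In those cells 3, 4 and 3 of the 7 had at least 10 counts in a library with shSCR, shBRG1 and shMITF. The sum of all 7 was 32.7 to 35.5, 28.3 to 30.4 and 43.9 to 65.6 CPM in that order. Nothing in the labels says that replicates came from separate cultures, so that p-values measure the spread between these samples, which may be technical.

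The serpins of these cells were dominated by 2 genes. Under a scramble vector, SERPINE2 (protease nexin 1, an inhibitor of thrombin and the plasminogen activators) and SERPINF1 together held most reads counted on the serpins described. SERPINE2 made up 61.0% ± 0.938 (SD, n = 3) of them with shSCR1 and 64.2% ± 0.651 (SD, n = 3) in Hermes 3A cells with shSCR, and SERPINF1 made up 36.3% ± 0.982 and 21.5% ± 0.547 (SD, n = 3 each). Per kilobase of exon, SERPINF1 stood first in 501Mel cells with shSCR1 (279.7 ± 6.37 CPM per kb, SD, n = 3), above SERPINE2 (162 ± 4.82). In Hermes 3A cells SERPINE2 (117 ± 3.14) and SERPINF1 (114 ± 1.03) overlapped between libraries (SD, n = 3 each). Both genes lay at the 98.2 to 99.7 percentile of 16935 protein-coding genes in these groups by level per kilobase. After them came SERPINI1 (neuroserpin, an inhibitor of tissue plasminogen activator), at 6.54 ± 0.348 CPM per kb with shSCR1 and 33.6 ± 1.52 in Hermes 3A cells (SD, n = 3 each). The next in order was SERPINH1 in Hermes 3A cells (8.97 ± 0.382 CPM per kb, SD, n = 3) and SERPINF2 with shSCR1 (1.97 ± 0.174). In all, 11 members averaged at least 100 counts in some group, and 21 never reached 100 counts in any library. SERPINA11 is listed in no file, and SERPINA9 is listed for the shSCR2 and shMITF groups of 501Mel cells with 0 counts in all 4 libraries, which allows a level of up to 0.0147 CPM over their 203543548 counts.

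**Figure D1:**
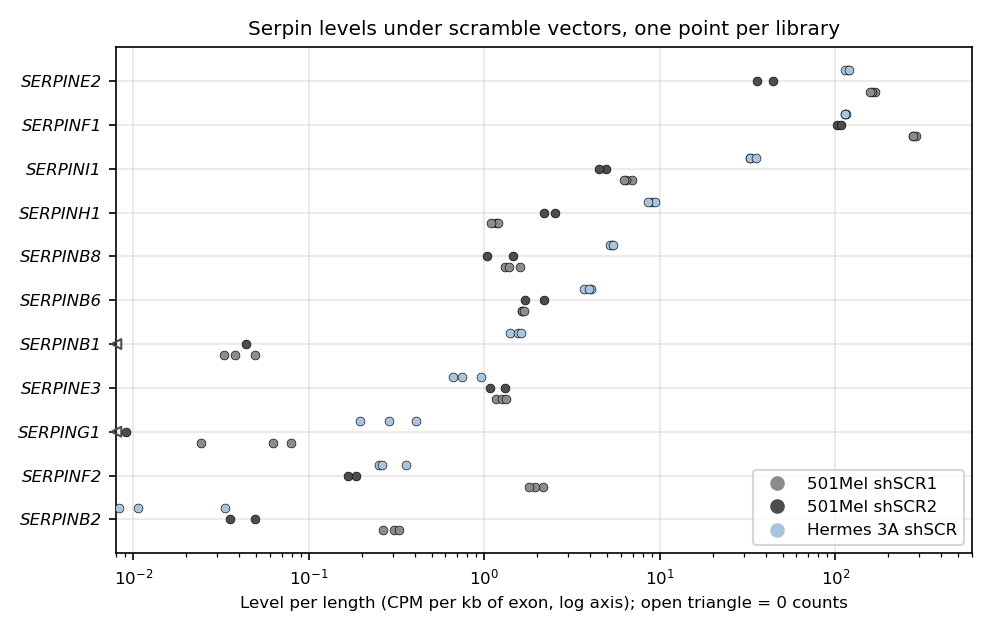
Level per length of the 11 serpins with at least 100 counts on average in some group, in CPM per kilobase of exon on a log axis, with one point for each scramble library and open triangles for 0 counts. SERPINE2 and SERPINF1 lie above the other members in all 8 libraries.

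The 4 knockdowns changed different numbers of serpins. With shBRG1 in 501Mel cells, 15 members passed the filter on low counts; 6 of these were called higher and 4 lower, where 21.7% and 17.4% of all genes tested were. With library sizes in place of TMM, the median log2 fold change of all genes in that comparison was 0.40 in place of 0.05, and 72% in place of 55.5% of all calls were higher. With shMITF in 501Mel cells 2 of 13 members were called higher and 0 lower (5.59% and 3.4% of all genes). DESeq2 called SERPINB2 and, in place of SERPINA12, SERPINI1, and 7 of the 13 had an unadjusted p under 0.05 in edgeR, 3 of them lower. With shBRG1 in Hermes 3A cells 1 of 13 was called higher and 2 lower (5.78% and 3.47% of all genes). With shMITF in Hermes 3A cells 2 of 13 were called higher and 2 lower (3.35% and 4.04% of all genes). The median log2 fold change over the members tested was 0.18, 0.32, 0.45 and 0.13 in that order, beside 0.05, 0.01, 0.01 and 0.05 over all genes. Members with few counts entered a test only where a group lifted them over the filter, so that these counts describe the tested members and support nothing about the family. Both Hermes 3A comparisons share the same shSCR libraries. The Hermes 3A shMITF libraries list 34033 genes each and those controls 42224. Whether they were processed together is not given in the sources used here, so that knockdown and processing cannot be told apart there.

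**Figure D2:**
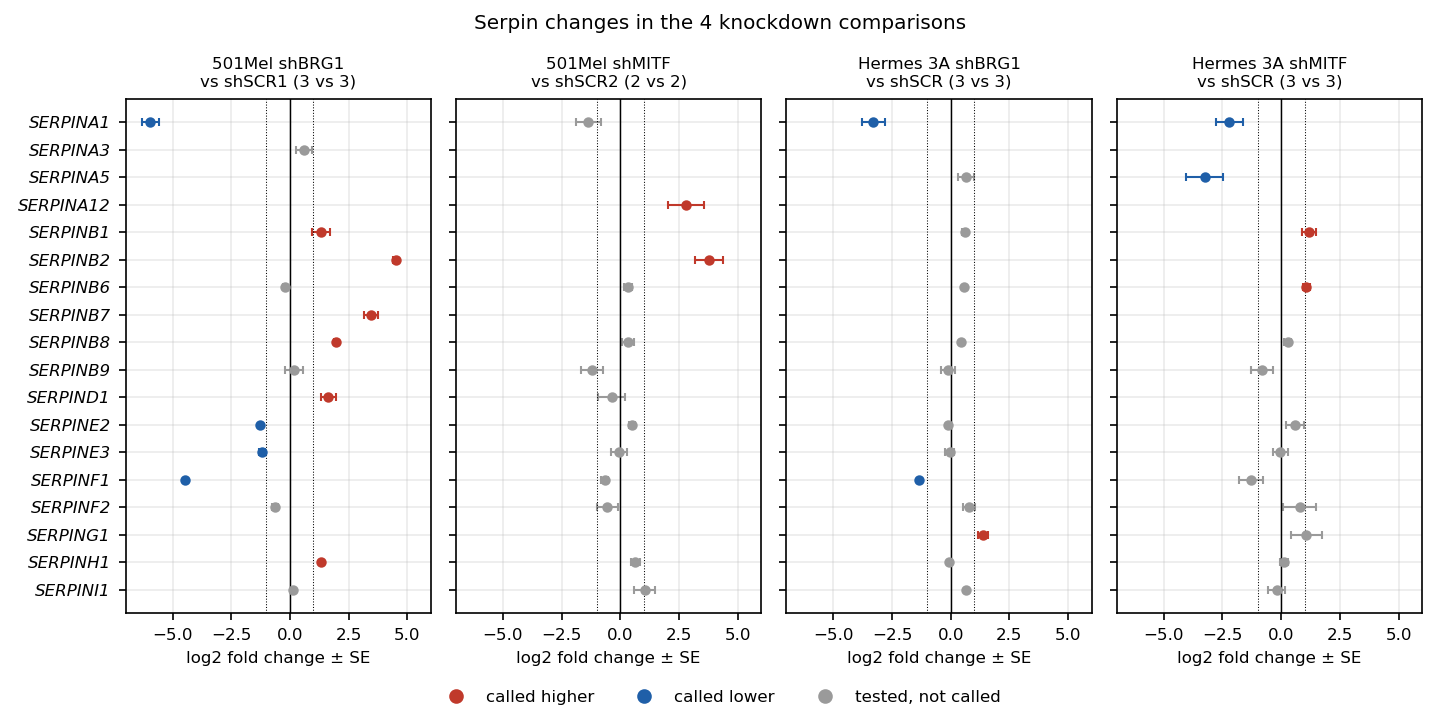
Log2 fold change of each tested serpin with its standard error (horizontal bars) in the 4 knockdown comparisons, with dotted lines at a log2 fold change of 1 in either direction; colours mark members called higher, called lower or not called. SERPINB2 lies over 2 in both 501Mel comparisons, and SERPINA1 lies below 0 in all 4.

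SERPINE2 (ENSG00000135919, chromosome 2 from 223975112 to 224039319 on the minus strand of GRCh38) fell with shBRG1 in 501Mel cells. It had 1491, 1430.1 and 1408 CPM with shSCR1 and 674, 599.5 and 619 CPM with shBRG1. The groups did not overlap, and the log2 fold change was -1.26 (standard error 0.052, adjusted p = 1.7e-16 from edgeR). With library sizes in place of TMM it was -0.91, short of the fold threshold, and with both scramble groups pooled it was -0.70. The shSCR2 libraries held only 317 and 391 CPM, below the shBRG1 libraries, and shMITF gave 509.8 and 469 CPM. That difference was 0.51 (standard error 0.133, adjusted p = 0.027 from edgeR), under the fold threshold. The Hermes 3A level was 1055, 1012 and 1064 CPM with shSCR and 937, 973 and 965 CPM with shBRG1, a difference of only -0.11 (standard error 0.041). The shMITF libraries held 2758, 1038 and 877 CPM. Replicate 1 was high and the others were near the control range; the difference was 0.60 with replicate 1 and -0.11 without it. SERPINE3, a little studied relative whose exons overlap INTS6 on the opposite strand, fell with shBRG1 in 501Mel cells from 3.05, 3.30 and 3.45 to 1.67, 1.4 and 1.4 CPM (-1.19, standard error 0.136; -0.84 with library sizes in place of TMM, not called). Its other 3 differences were between -0.05 and -0.03, with standard errors of 0.182 to 0.331. Whether reads were counted by strand is not given in the sources used here, so that reads of SERPINE3 and INTS6 may be mixed.

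**Figure D3:**
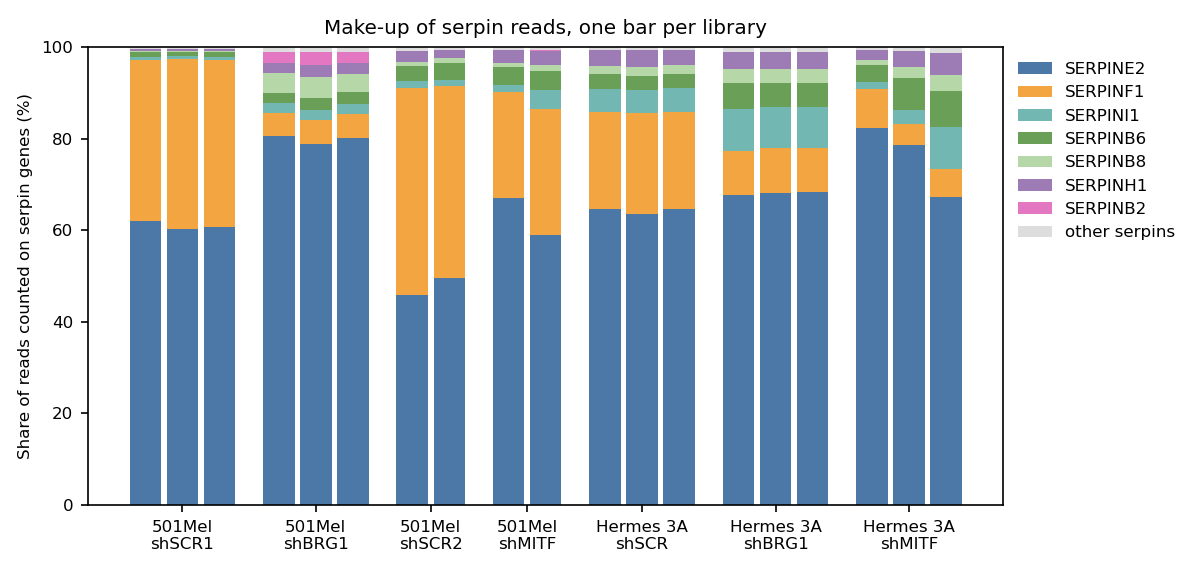
Share of the reads counted on the serpins described that each took, in percent, with one bar per library. By group mean the SERPINE2 share is largest in 501Mel shBRG1 libraries, at 79.8%, and the SERPINF1 share is smallest there, at 5.11%, while single Hermes 3A shMITF libraries reach 82.2% and 4.62%.

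SERPINF1 (ENSG00000132386, chromosome 17 from 1761959 to 1777574, plus strand) fell most among the abundant serpins with shBRG1. It had 846, 881 and 848 CPM with shSCR1 and 42.2, 39.8 and 39.1 CPM with shBRG1. Its share of serpin reads went from 36.3% ± 0.982 to 5.11% ± 0.101, while that of SERPINE2 went from 61.0% ± 0.938 to 79.8% ± 0.918 (SD, n = 3 each). The replicates agreed closely in both groups, and the log2 fold change was -4.48 (standard error 0.054, adjusted p = 1.5e-25 from edgeR), a 22.2-fold difference. In Hermes 3A cells it fell from 347, 353 and 348 CPM with shSCR to 132, 139 and 134 CPM with shBRG1 (-1.36, standard error 0.040, adjusted p = 2.6e-21 from edgeR). The call was lost, at the same size, when all Hermes 3A groups were fitted together and shared the spread of the shMITF libraries. With shMITF in 501Mel cells SERPINF1 had 176 and 220.5 CPM, against 312 and 331 CPM with shSCR2. The difference of -0.66 (standard error 0.146, adjusted p = 0.014 from edgeR) was under the fold threshold. With shMITF in Hermes 3A cells it had 289.9, 61.0 and 78.2 CPM. All 3 libraries lay below every control, but the difference of -1.27 (standard error 0.512, adjusted p = 0.127 from edgeR) was not called; without replicate 1 it was -2.31 and was called. The summed level of the melanocyte lineage markers was also lower after each knockdown. It was 3107 to 3401 CPM with shBRG1 in 501Mel cells, 11356 to 11770 CPM with shMITF and 20714 to 23226 CPM with shSCR2. In Hermes 3A cells it was 30195 to 31838 CPM with shBRG1 and 25893 to 33966 CPM with shMITF. Hermes 3A cells with shSCR held more of the markers than 501Mel cells with shSCR1 (63251 to 64444 against 29283 to 31484 CPM), but less SERPINF1. They also held more of the markers than shSCR2, with no call for SERPINF1. The part of the markers in the SERPINF1 differences was not tested. SERPINF2 (alpha 2-antiplasmin, the main inhibitor of plasmin), the neighbour of SERPINF1 on chromosome 17, had 5.05, 4.57 and 4.24 CPM with shSCR1 and 2.69, 3.74 and 2.86 CPM with shBRG1 (-0.65, standard error 0.124, not called). Its difference with shBRG1 in Hermes 3A cells was 0.78 (standard error 0.270), with 0.593, 0.616 and 0.843 CPM in controls and 1.06, 0.951 and 1.52 CPM after knockdown. Its shMITF differences were -0.55 in 501Mel cells (0.392 and 0.435 to 0.220 and 0.328 CPM) and 0.78 in Hermes 3A cells, the latter set by replicate 2 (0.426, 2.63 and 0.403 CPM; -0.70 without it). Neither was called.

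**Figure D4:**
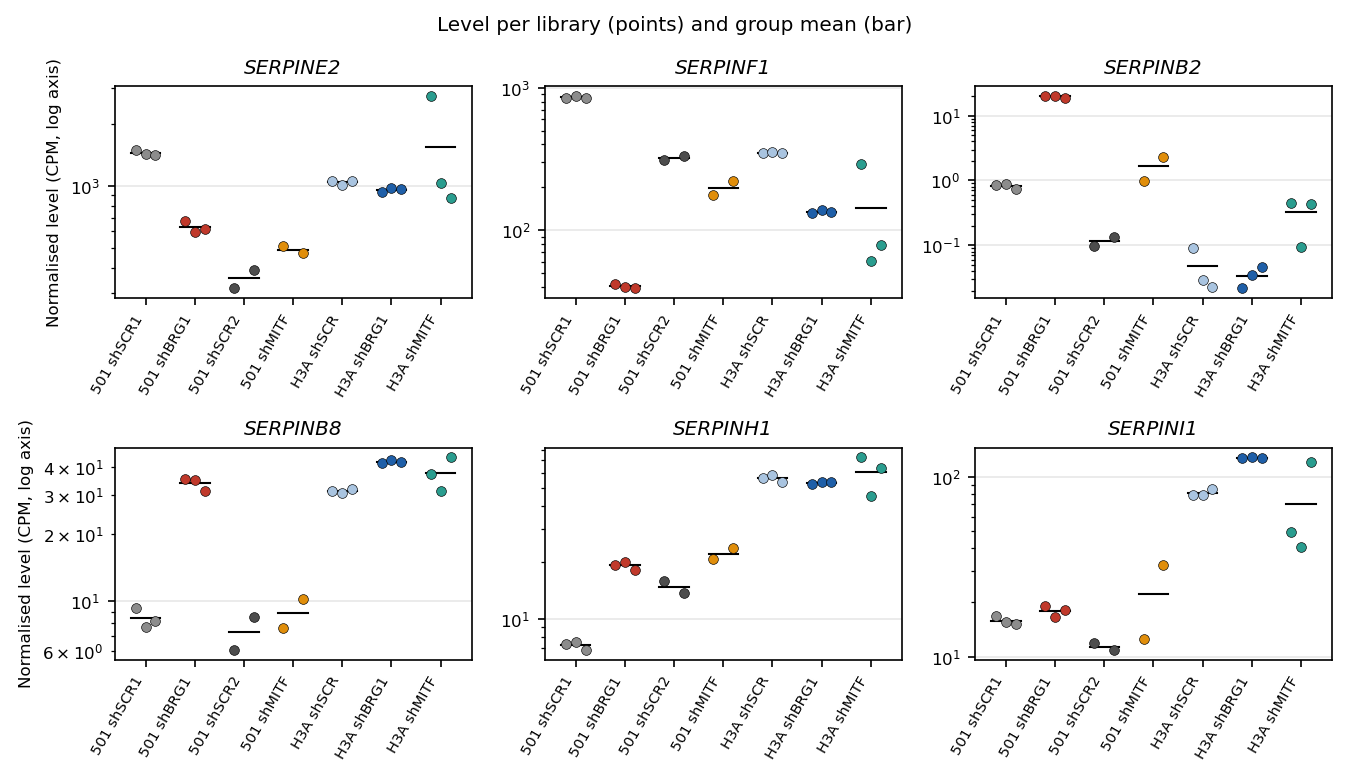
Level of 6 serpins in every library (points) with the group mean (bar), in CPM on a log axis whose range differs between panels. SERPINB2 is highest with shBRG1 in 501Mel cells, SERPINF1 is lowest there, and shSCR1 and shSCR2 lie apart for SERPINE2, SERPINF1, SERPINB2, SERPINH1 and SERPINI1.

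Clade B has 13 members in these data, 10 of them within 543 kb of chromosome 18 and 3 (SERPINB1, SERPINB6 and SERPINB9) within 139.8 kb of chromosome 6. With shBRG1 in 501Mel cells 3 members of the chromosome 18 cluster passed the filter, and all 3 rose, where 21.7% of all genes tested were called higher. SERPINB2 (PAI-2, which inhibits urokinase and is held mostly inside the cell) had 0.838, 0.892 and 0.730 CPM with shSCR1 and 20.0, 20.3 and 18.9 CPM with shBRG1. No library of one group came near the other, and the log2 fold change was 4.50 (standard error 0.106, adjusted p = 5.7e-21 from edgeR). SERPINB8 (a cytosolic inhibitor of furin and related proteases) had 9.36, 7.69 and 8.15 CPM with shSCR1 and 35.4, 35.0 and 31.2 CPM with shBRG1, a rise of 1.95 (standard error 0.075, adjusted p = 5.1e-17 from edgeR). SERPINB7 (megsin) had 6, 4 and 3 counts with shSCR1 and 64, 65 and 60 with shBRG1, and passed the filter only through the latter (log2 fold change 3.46, standard error 0.303). The other 7 members of the cluster had at most 8 counts in any library. SERPINB2 and SERPINB10 share exon sequence on the same strand, as do SERPINB8 and HMSD, so that counts may be split between them; SERPINB10 had at most 1 count in a library.

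The 3 chromosome 18 members that rose lie on the plus strand within the same cluster, and the bases before a RefSeq start site of each are shown because they moved together. The sequences are from the RefSeq promoter table of GRCh38.p14, 5′ to 3′, each ended before the first base within the window that GENCODE 29 annotates as exon of the gene. Capitals mark matches, on either strand, to TGANTCA (the motif of AP-1 factors) or to CATGTG (an E-box that MITF can bind). The SERPINB2 and SERPINB7 windows lie within the longer gene models of GENCODE 29, between exons. A window was shown only if it held a match, so that the choice itself set that each would hold one. Another SERPINB7 window, chr18:63752807-63753056 at the 5′ end of the gene model, holds no match.
SERPINB2, chr18:63887455-63887699, plus strand: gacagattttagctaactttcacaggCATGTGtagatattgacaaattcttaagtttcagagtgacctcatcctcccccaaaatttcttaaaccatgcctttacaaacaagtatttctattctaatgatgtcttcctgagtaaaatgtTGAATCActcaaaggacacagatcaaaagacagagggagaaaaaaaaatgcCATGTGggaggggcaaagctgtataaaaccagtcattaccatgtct
SERPINB7, chr18:63777531-63777776, plus strand: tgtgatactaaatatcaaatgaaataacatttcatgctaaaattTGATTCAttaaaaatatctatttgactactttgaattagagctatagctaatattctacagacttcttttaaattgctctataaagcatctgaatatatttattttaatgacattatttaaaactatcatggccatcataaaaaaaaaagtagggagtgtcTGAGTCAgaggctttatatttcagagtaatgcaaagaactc
SERPINB8, chr18:63969831-63969924, plus strand: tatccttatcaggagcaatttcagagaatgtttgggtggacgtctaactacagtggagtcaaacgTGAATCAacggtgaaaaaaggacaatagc

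The TGANTCA match begins 102 bases before the start in SERPINB2, 206 and 45 bases before it in the SERPINB7 window shown, and 185 bases before it in SERPINB8, where a further match begins 28 bases before it in bases not shown. A window of 250 bases before to 50 after the start was read for 27 of the 33 members. In at least 1 of its windows TGANTCA was found for 8 of the 27 members (29.6%) and for 9.37% of 27305 genes in the table. Besides SERPINB2, SERPINB7 and SERPINB8 these members were SERPINB5, SERPINB12, SERPINB13 and SERPINI2, none of them tested in a knockdown comparison, and SERPINE3. The last fell with shBRG1 in 501Mel cells (-1.19). CATGTG was found for 8 members (29.6%) and for 13.4% of the genes, and the palindromic E-box CACGTG, which MITF and related factors also bind, for 1 member (3.7%) and for 8.77% of the genes. Neighbouring serpins arose by duplication and are not independent in their sequence: SERPINB3 and SERPINB4, which are near-identical copies, carry CATGTG at the same place. The member with CACGTG is SERPINE2, shown because its window holds 5 CATGTG matches beside it (in capitals) in repeats that resemble each other. It lies within longer gene models of GENCODE 29, between exons. The window of the other SERPINE2 start in the table, near the 5′ end of the gene model, holds none of the 3 motifs.
SERPINE2, chr2:224031479-224031728, minus strand: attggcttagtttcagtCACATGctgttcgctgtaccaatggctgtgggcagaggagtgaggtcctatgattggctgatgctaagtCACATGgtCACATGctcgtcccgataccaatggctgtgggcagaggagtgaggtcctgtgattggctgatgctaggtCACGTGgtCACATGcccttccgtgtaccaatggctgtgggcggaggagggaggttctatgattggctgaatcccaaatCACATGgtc
These matches describe the letters in the windows; binding was not measured in these libraries.

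With shMITF in 501Mel cells SERPINB2 had 0.969 and 2.32 CPM, against 0.0979 and 0.136 CPM with shSCR2, which is 3 and 10 counts. The rise of 3.78 (standard error 0.590, adjusted p = 0.0033 from edgeR) was 2.97 without shMITF replicate 2, and it was 1.64 and not called with both scramble groups pooled. SERPINB8 had 7.62 and 10.2 CPM with shMITF and 6.07 and 8.49 CPM with shSCR2, an overlap (0.33, standard error 0.266). SERPINB8 in Hermes 3A cells had 31.3, 30.6 and 31.7 CPM with shSCR, a level that 501Mel cells reached only with shBRG1. There it rose little with shBRG1 (41.5, 43.1 and 41.8 CPM, a difference of 0.45, standard error 0.057, under the fold threshold) and overlapped the controls with shMITF (37.2, 31.0 and 44.1 CPM). SERPINB2 and SERPINB7 had at most 16 and 6 counts in any Hermes 3A library and were not tested there. For SERPINB7, whose shSCR libraries were at 0, the 12 counts with shBRG1 make at least a 3.31-fold higher level against a floor of 3 counts over the group.

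On chromosome 6, SERPINB1 and SERPINB6 had more reads in Hermes 3A cells. SERPINB1, which guards against neutrophil elastase and related proteases, had 4.35, 4.81 and 4.97 CPM with shSCR and at most 0.152 CPM in any scramble library of 501Mel cells. With shMITF in Hermes 3A cells it had 15.0, 5.77 and 10.9 CPM, all above the controls, and was called higher (1.19, standard error 0.318, adjusted p = 0.037 from edgeR). Leaving out any one control library, or shMITF replicate 1 or 3, ended that call, and the fold change was then between 0.84 and 1.21. With shBRG1 it had 7.39, 7.20 and 6.46 CPM (0.59, standard error 0.109, under the fold threshold). In 501Mel cells it went from 5, 8 and 4 counts with shSCR1 to 22, 20 and 14 with shBRG1, which was called (1.33, standard error 0.376). SERPINB6, an inhibitor of cathepsin G and other proteases, had 53.6, 49.0 and 51.9 CPM with shSCR in Hermes 3A cells, 78.2, 76.5 and 74.5 CPM with shBRG1 (0.58, standard error 0.046, under the fold threshold) and 124, 93.6 and 102 CPM with shMITF. The shMITF libraries lay above all others, and the rise was 1.07 (standard error 0.135, adjusted p = 0.0023 from edgeR) or 0.94, not called, without replicate 1. In 501Mel cells SERPINB6 had 21.6, 21.7 and 22.1 CPM with shSCR1, 18.7, 20.6 and 19.1 with shBRG1 (-0.23, standard error 0.061), 22.4 and 28.99 with shSCR2 and 28.6 and 33.7 with shMITF (0.32, standard error 0.177). SERPINB9, which protects cells from granzyme B, had between 6 and 47 counts per library and was called in none of the 4 comparisons (0.18 and -1.20 in 501Mel cells with shBRG1 and shMITF, -0.11 and -0.81 in Hermes 3A cells). It was lower with shSCR1 than in Hermes 3A cells with shSCR (-1.56, standard error 0.386), but not called with shSCR2 as the 501Mel group (-0.28).

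SERPINH1, the collagen chaperone (ENSG00000149257, chromosome 11 from 75562056 to 75572783, plus strand), rose with shBRG1 in 501Mel cells from 7.30, 7.51 and 6.81 CPM to 19.4, 20.0 and 18.3 CPM. The groups did not overlap (1.34, standard error 0.073, adjusted p = 3.5e-14 from edgeR). The shSCR2 libraries held 15.9 and 13.6 CPM, between both groups, and with the scrambles pooled the difference was 0.88 and was not called. With shMITF the level was 20.8 and 23.7 CPM (0.64, standard error 0.182, under the fold threshold). Hermes 3A cells held 56.6, 58.6 and 53.8 CPM with shSCR, 52.4, 53.5 and 53.6 with shBRG1 and 72.8, 45.3 and 63.6 with shMITF. Neither difference there was called (-0.07, standard error 0.051, and 0.13, standard error 0.173). The 6 fibroblast markers, which include the collagens that SERPINH1 folds, summed to 3.56 to 4.97 CPM with shSCR1 and 16.1 to 19.5 CPM with shBRG1, and 6 of 6 had at least 10 counts in some shBRG1 library. In Hermes 3A cells, where SERPINH1 was not called, these markers summed to 71.3 to 80.0 CPM with shSCR. They summed to 139 to 148 CPM with shBRG1 and 113 to 218 CPM with shMITF there. The part of the markers in the SERPINH1 rise in 501Mel cells was not tested. SERPINI1 had 16.8, 15.5 and 15.2 CPM with shSCR1 and 19.2, 16.7 and 18.1 with shBRG1 (0.12, standard error 0.069). It had 11.9 and 10.9 CPM with shSCR2 and 12.6 and 32.3 with shMITF, where replicate 2 set the difference of 1.03 (standard error 0.458, adjusted p = 0.180 from edgeR), which was 0.15 without it. It was 1.56 and called without replicate 1, and was also called by DESeq2 (1.02) and with no filter (1.03). Hermes 3A cells had 79.3, 79.1 and 85.6 CPM with shSCR and 127, 128 and 127 with shBRG1. The 3 shBRG1 libraries were almost equal and above all controls, but the difference of 0.66 (standard error 0.043, adjusted p = 1.2e-13 from edgeR) was under the fold threshold. With shMITF it had 49.3, 40.8 and 121 CPM (-0.19, standard error 0.354, and -0.82 without replicate 3).

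SERPING1 (C1 inhibitor, which restrains complement C1 and the contact proteases) was called only with shBRG1 in Hermes 3A cells among the 4 comparisons. It rose there from 0.706, 1.47 and 1.03 CPM to 2.72, 2.58 and 2.84 CPM (1.38, standard error 0.210, adjusted p = 2.0e-06 from edgeR), and the call was lost at the same size with all Hermes 3A groups in one fit. With shMITF it had 3.52, 0.412 and 2.68 CPM: replicates 1 and 3 lay above every control and replicate 2 below. The difference of 1.07 (standard error 0.650) was not called, and without replicate 2 it was 1.57 and was called. In 501Mel cells it had at most 15 counts in a library and was not tested. SERPINA1 (alpha 1-antitrypsin, the plasma inhibitor of neutrophil elastase) was low everywhere, and its counts after each knockdown lay below those of every control of that comparison. Its counts were 66, 87 and 57 with shSCR1 and 2, 1 and 1 with shBRG1 (-5.95, standard error 0.359, adjusted p = 2.9e-13 from edgeR), and 15 and 23 with shSCR2 and 6 and 8 with shMITF (-1.37, standard error 0.529, not called). The Hermes 3A counts were 34, 22 and 29 with shSCR, 2, 4 and 4 with shBRG1 (-3.29, standard error 0.473, adjusted p = 8.2e-07 from edgeR) and 9, 4 and 1 with shMITF (-2.21, standard error 0.559, adjusted p = 0.031 from edgeR). The last call was lost without any one control library or without shMITF replicate 2 or 3, with fold changes from -2.27 to -1.80. The 5 hepatocyte markers, genes of the main source of this protein, summed to 6.75 to 7.45 CPM with shSCR, 10.7 to 12.9 CPM with shBRG1 and 9.35 to 25.9 CPM with shMITF in Hermes 3A cells. Of these 5, 1 had at least 10 counts in a library there, and FGA and FGB were at 0. Their part in the SERPINA1 differences was not tested. The 5 leukocyte markers summed to at most 3.07 CPM in any library.

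The remaining called members rested on few counts. SERPINA5 (protein C inhibitor) fell with shMITF in Hermes 3A cells from 13, 15 and 27 counts to 1, 0 and 3 (-3.26, standard error 0.796, adjusted p = 0.027 from edgeR). That call was lost without any one control library; with shBRG1 it had 36, 28 and 37 counts and was not called. SERPINA12 (vaspin) had 0 and 4 counts with shSCR2 and 12 and 14 with shMITF in 501Mel cells (2.81, standard error 0.770), a call lost when any one library was left out. SERPIND1 (heparin cofactor II, which lies in PI4KA on the opposite strand) had 14, 5 and 7 counts with shSCR1 and 38, 35 and 33 with shBRG1 (1.64, standard error 0.326), but also 30 and 33 with shSCR2, and with the scrambles pooled it was not called (0.65). SERPINA3 (alpha 1-antichymotrypsin) had 20, 10 and 7 counts with shSCR1 and 34, 23 and 16 with shBRG1 (0.60, standard error 0.344). In Hermes 3A cells it was at 0 with shSCR and had 12, 16 and 5 counts with shBRG1, at least a 9.09-fold higher level against a floor of 3 counts over the group; this gene did not pass the filter there. Antithrombin (SERPINC1), SERPINA4, SERPINA6, SERPINA7, SERPINA10, SERPINB3, SERPINB4, SERPINB5 (maspin), SERPINB10 to SERPINB13 and SERPINI2 had at most 16 counts in any library and were tested in none of the 4 comparisons. The floors cover counting error only, while the standard errors also take in the spread between libraries.

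The 2 scramble groups of 501Mel cells differed for many serpins. Serpin reads made up 0.245% ± 0.00531 (SD, n = 3) of all counts with shSCR1 and 0.0703% ± 0.00473 (SD, n = 2) with shSCR2. Of 13 members tested, 3 were called higher with shSCR2 and 6 lower, where 12.3% and 20.7% of all genes were. SERPINF2 was lower by 3.45 on the log2 scale (-3.45, standard error 0.218), SERPINE2 by 2.02 (-2.02, standard error 0.094) and SERPINF1 by 1.4 (-1.4, standard error 0.066). SERPINH1 was higher by 1.04 (standard error 0.121), which fell to 0.90 with library sizes in place of TMM. Whether the vectors of both groups differ is not given in the sources used here, and batch and vector cannot be told apart.

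Between the cell lines under a scramble vector, 4 of 14 members tested were higher in 501Mel cells with shSCR1 than in Hermes 3A cells and 8 were lower (23.1% and 18.2% of all genes). SERPINB2 (3.99), SERPINF2 (2.74), SERPINF1 (1.29) and SERPINA1 (1.15) were higher. SERPINB1 (-5.20, standard error 0.240), SERPINH1 (-2.96), SERPINI1 (-2.36), SERPING1 (-2.30) and SERPINB8 (-1.89) were the furthest below. With shSCR2 as the 501Mel group, only 1 member was called higher, SERPIND1, named after its value was seen. With that group, SERPINF1 (-0.13), SERPINF2 (-0.73), SERPINA1 (-0.87) and SERPINE2 (-1.57, against 0.47 with shSCR1) changed sign. SERPINB1, SERPINH1, SERPINI1, SERPING1 and SERPINB8 were lower in 501Mel cells with either scramble group, by the test.

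Tests of the differences between effects used the libraries of both effects. For shBRG1, 3 of 17 members differed upward in 501Mel cells relative to Hermes 3A cells and 7 downward (12% and 14.9% of all genes). Among them were SERPINB2 (4.97) and SERPINF1 (-3.15). For shMITF, 0 of 16 were called in either direction by edgeR or DESeq2 (2% and 0.643% of all genes in edgeR), and 1 had an unadjusted p under 0.05; without replicate 1 of shMITF in Hermes 3A cells SERPINF1 (1.63) was called, and without replicate 3 SERPINI1 (1.85) was. Between shBRG1 and shMITF within 501Mel cells, each against its own scramble group, 3 of 19 differed upward and 4 downward (11.8% and 15.5% of all genes).

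Genes that work with the serpins were read as lists, whose counts stand beside the shares of all genes: 5.59% higher and 3.4% lower with shMITF in 501Mel cells, 5.78% and 3.47% with shBRG1 and 3.35% and 4.04% with shMITF in Hermes 3A cells. Of 12 genes of plasminogen activation, with 10 tested, 2 were called higher and 2 lower with shBRG1 in 501Mel cells, where 21.7% and 17.4% of all genes tested were. Of 8 tested with shMITF in those cells, 0 were called. In Hermes 3A cells 1 of 9 was lower with shBRG1 and 1 of 9 higher with shMITF. S100A10, which with annexin A2 holds plasminogen at the cell surface, went from 15.0 to 18.7 CPM with shSCR1 to 53.9 to 55.4 CPM with shBRG1 (1.66, standard error 0.066), and from 93.1 to 104 CPM with shSCR to 151 to 298 CPM with shMITF in Hermes 3A cells (1.24, standard error 0.224). Of 14 listed genes of coagulation and thrombin signalling, 1 of 6 was higher and 1 lower with shBRG1 (21.7% and 17.4% of all genes) and 1 of 6 higher with shMITF in 501Mel cells; in Hermes 3A cells 0 of 7 were called with shBRG1 and 2 of 7 were higher with shMITF. TFPI, the tissue factor pathway inhibitor, rose with shMITF in both lines (1.15, standard error 0.278, and 1.43, standard error 0.320).

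A list of 7 complement genes held the proteases C1R, C1S, MASP1 and MASP2, which SERPING1 inhibits, and the C1q subunits C1QA, C1QB and C1QC. C1S was lower in all 4 comparisons: -1.55 and -2.53 in 501Mel cells with shBRG1 and shMITF, and -1.20 and -2.06 in Hermes 3A cells (standard errors 0.155, 0.524, 0.162 and 0.344). C1R was lower in 501Mel cells (-4.99, standard error 0.194, and -1.41, standard error 0.404). In all, 3 of 4, 2 of 4, 1 of 3 and 1 of 3 tested genes of this list fell and 0 rose, where 17.4% of all genes were lower in the first comparison. Among 15 listed proteases that clade B serpins can inhibit, 2 of 12 were higher and 6 lower with shBRG1 in 501Mel cells (21.7% and 17.4% of all genes), 1 of 10 was higher and 1 lower with shMITF, and in Hermes 3A cells 2 of 10 and 3 of 10 were lower and 0 higher. The cathepsin CTSV fell in 3 comparisons (-1.12, -1.19 and, with shMITF in Hermes 3A cells, -1.19), CASP1 fell with shBRG1 in both lines (-3.74 and -1.26), and CTSB fell with shBRG1 (-1.82) and rose with shMITF (2.37) in 501Mel cells. GZMB was higher with shBRG1 in 501Mel cells (1.27) and lower with shMITF in Hermes 3A cells (-1.62). Of 17 genes of procollagen folding, the pathway of SERPINH1, 1 was higher and 5 lower with shBRG1 in 501Mel cells (21.7% and 17.4% of all genes), 1 higher with shMITF there, 2 higher with shBRG1 in Hermes 3A cells and 0 called with shMITF. Of these, P4HA3, a collagen prolyl hydroxylase subunit, fell with shBRG1 in 501Mel cells (-2.14) and rose in Hermes 3A cells (1.52), and COLGALT2, a collagen galactosyltransferase, rose with shMITF in 501Mel cells (1.71) and with shBRG1 in Hermes 3A cells (1.09). The median log2 fold change of each list with shBRG1 in 501Mel cells was 0.13 for plasminogen activation, 0.23 for coagulation, -0.43 for procollagen folding, -0.96 for the proteases and -1.47 for complement, beside 0.05 over all genes.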

How the data were processed

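Total RNA depleted of ribosomal RNA was sequenced with a duplex-specific nuclease step, which lowers the most abundant cDNAs and so may compress the levels of the highest genes. For each of the 19 libraries the authors deposited counts of reads by Ensembl gene, not normalised, and these were used as they stood. The submitters' processing notes name hg19, CASAVA 1.8, TopHat 1.4.1 and Bowtie 0.12.7, with no roles given. The counting program, its annotation release and its use of strand are not given in the sources used here. Each Hermes 3A shMITF library lists 34033 genes, each shSCR2 and 501Mel shMITF library 41467 and every other library 42224. The reason is not given in the sources used here, and a comparison covers the genes that all its libraries list.

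Groups came from the labels. Members were matched to symbols, gene types, exon lengths and GRCh38 positions in GENCODE 29 by Ensembl identifier; 1 serpin symbol that is not protein-coding there was left out. Each comparison was fitted alone in edgeR 4.0.16 on R 4.3.3 (TMM, filterByExpr, robust glmQLFit, glmQLFTest), with Benjamini-Hochberg adjustment over all genes tested. Calls needed an adjusted p under 0.05 and an absolute log2 fold change over 1. Standard errors were derived from the fitted log2 fold change and its F statistic. Differences between effects were contrasts in one fit. Per-length levels are CPM divided by the summed exon length. The code was tested on simulated data. Tables and figures were made in Python 3.11.15 with pandas 2.3.3, numpy 2.4.6 and matplotlib 3.10.9.

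The members and the gene lists were chosen with earlier results of these data known. By the rule for named genes, members called in at least 1 of the 4 knockdown comparisons or with a mean of at least 100 counts in a group have their values given, and list genes are named when called in at least 2 of the 4 comparisons with such a mean. In the 3 comparisons with 3 pairs, samples sharing a replicate number did not deviate together (mean correlations of 0.0071, 0.021 and -0.025 over genes). In the 501Mel shMITF comparison the value was 0.131, and 2 pairs centred on their group means cannot decide the question. The numbers were not treated as pairs in any comparison. The alternatives were DESeq2 1.42.0, scaling by library size alone, no filter, at least 10 counts in every sample, a replicate block, all groups of a cell line in one fit, other scramble groups, no fold threshold and each replicate left out. Proteins and the promoter of SERPINF1 were not used here. Of the 34 serpin genes, 1 is not reported here and enters no count, share or median of serpins.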

Additional observations from a re-analysis of the deposited data

Results flagged for a closer look

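A test of the difference between 2 effects was passed by 17 results, each given as a log2 difference with the adjusted p from edgeR. No explanation was tested. The effect of shBRG1 was larger upward in 501Mel cells than in Hermes 3A cells for SERPINB2 (4.97, adjusted p = 1.0e-05), SERPINB8 (1.47, adjusted p = 3.3e-16) and SERPINH1 (1.38, adjusted p = 8.3e-17). It was lower in 501Mel cells for SERPINF1 (-3.15, adjusted p = 7.4e-32), SERPINA1 (-2.67, adjusted p = 0.0045), SERPINE2 (-1.18, adjusted p = 1.3e-17), SERPINE3 (-1.17, adjusted p = 3.3e-05), SERPINF2 (-1.44, adjusted p = 2.3e-05), SERPING1 (-3.96, adjusted p = 2.3e-06) and SERPINA3 (-5.88, adjusted p = 0.00055). The SERPINE2 and SERPINE3 calls ended when libraries were scaled by size alone (-0.91 and -0.90) or every library had to hold 10 counts of a gene (-0.98 and -0.97). The SERPINA3 value is no bound, since its Hermes 3A controls were at 0. SERPING1 had at most 15 counts in a 501Mel library and SERPINB2 at most 4 in a Hermes 3A library of this comparison.

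Within 501Mel cells the effect of shBRG1 lay above that of shMITF for SERPINB7 (5.65, adjusted p = 0.0014), SERPIND1 (1.98, adjusted p = 0.024) and SERPINB8 (1.66, adjusted p = 1.5e-05). It lay below for SERPINA1 (-4.59, adjusted p = 4.1e-05), SERPINF1 (-3.79, adjusted p = 4.3e-11), SERPINE2 (-1.74, adjusted p = 2.9e-08) and SERPINE3 (-1.12, adjusted p = 0.0038). The scramble groups differed, with shSCR2 minus shSCR1 at -2.02 for SERPINE2 and SERPINA1, -1.40 for SERPINF1 and 1.78 for SERPIND1. It was -0.18 for SERPINB8 and -0.06 for SERPINE3. After knockdown SERPINE2 averaged 70.9 CPM per kb with shBRG1 and 55.1 with shMITF. SERPIND1 had 38, 35 and 33 counts with shBRG1 and 35 and 14 with shMITF. The part of the scramble groups in these differences was not tested. The SERPINB7 value rests on 7 counts in the 4 libraries of the shMITF experiment, and it was 1.10 and not called without shSCR2 replicate 2. The SERPIND1 difference lost its call without shSCR1 replicate 2, shSCR2 replicate 1 or shMITF replicate 2 (1.61, 1.43 and 1.42). The SERPINE3 difference lost its call with library sizes in place of TMM (-0.90) or with at least 10 counts in every sample (-0.9998). It was -0.99 without shSCR2 replicate 2 and -0.79 without shMITF replicate 2, under the fold threshold.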

How the results depend on the processing

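Of 1690 fold changes of single serpins under alternatives, 1549 kept sign and call, 62 that were not called changed sign, 54 lost a call, 21 gained one and 4 changed sign where called. The cause of the changes below was not tested, except that the stricter filter and the smaller sets of libraries test fewer genes or samples. Counts of called serpins that moved by over 1.5 times are given against the value reported. With library sizes in place of TMM, 2 in place of 4 fell with shBRG1 in 501Mel cells. That scaling moved the median log2 fold change of all genes from 0.04 to 0.30 between lines, from -0.03 to 0.25 for the shBRG1 difference between lines, from 0.02 to 0.24 for the difference within 501Mel cells and from 0.01 to 0.11 for shBRG1 in Hermes 3A cells. The share of calls that were higher became 56% in place of 45.3% for shMITF and 72.5% in place of 62.5% for shBRG1 in Hermes 3A cells, 66% in place of 55.9% between lines, 61.8% in place of 44.7% for the shBRG1 difference between lines and 57.3% in place of 43.2% for the difference within 501Mel cells. With no filter, 10 rose with shBRG1 in 501Mel cells and 3 in Hermes 3A cells. With at least 10 counts in every sample, 3 rose with shBRG1 and 0 with shMITF in 501Mel cells, 1 and 0 fell in Hermes 3A cells, 4 were lower in 501Mel than in Hermes 3A cells and 0 higher with shSCR2 than with shSCR1. The shBRG1 difference between lines then held 2 lower, and the difference within 501Mel cells 1 higher and 2 lower. With all groups of a line in one fit, 2 fell with shMITF in 501Mel cells, and with shBRG1 in Hermes 3A cells 0 rose and 1 fell. With the scrambles pooled, 0 rose with shMITF in 501Mel cells and 1 was higher in 501Mel than in Hermes 3A cells. By adjusted p alone, 4 rose and 1 fell with shMITF in 501Mel cells, and 6 rose with shBRG1 in Hermes 3A cells. With shSCR2 as the 501Mel group, 1 was higher between lines, and SERPINF1 (-0.13), SERPINE2 (-1.57), SERPINF2 (-0.73) and SERPINA1 (-0.87) reversed. Leaving out 1 replicate at a time gave 1 to 2 higher with shBRG1 in Hermes 3A cells, 0 to 4 higher and 0 to 3 lower with shMITF there, 0 to 1 higher for the shMITF difference between lines and 1 to 2 higher with shMITF in 501Mel cells.

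With a replicate block, the counts stood at 6 higher and 4 lower, 2 and 0, 1 and 2, and 2 and 2 in the 4 knockdown comparisons. For the difference within 501Mel cells they were 3 higher and 5 lower, and SERPING1 (-4.38) gained a call. Replicate numbers are shared across groups without marking a common source, so that this is no paired result. For 21 members under 100 counts in every library, depth limits what differences could be seen.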
